A study of Mus musculus with 8 samples.

Results

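Fibronectin, tenascin-X, versican, decorin and their partners make up much of the connective tissue around muscle fibres that is not collagen. Their transcripts were followed here through 10 genes: Fn1, Tnxb, Lox, Loxl1, Vcan, Dcn, Sparc, Postn, Fbn1 and Aebp1. A gene was taken by its symbol, from probe sets to which the platform annotation gives exactly 1 symbol, with the brightest probe set used where a gene had several. Of the 10, 9 were found in this way, each with 1 probe set, among the 19938 genes that could be compared, and Fbn1 was not analysed here. The RNA came from gastrocnemius, a calf muscle, of 4 samples of mice lacking Hdac5 (labelled HADAC5 KO, called knockout) and 4 from wild type littermates (HDAC5 WT). All were 30 weeks old, ate low-fat chow and had no further treatment, and each sample was run on its own Affymetrix mouse gene array. The study asked how the histone deacetylase HDAC5 bears on interleukin 6 and on genes that this cytokine regulates. The labels name no tissue to which the deletion was limited, and do not say which part of the gene was removed. The samples are numbered, but nothing says that each came from a separate animal, so the p-values speak only of the spread among these samples, which may be technical.

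Fibroblasts between the fibres, among them the fibro-adipogenic progenitors, secrete most of this matrix. Fibronectin is laid down as fibrils that bind integrins and on which collagen and fibrillin are assembled, proteoglycans such as decorin and versican bind collagen fibrils or hold water, and lysyl oxidases crosslink collagen and elastin. HDAC5 is a class IIa deacetylase, best known in muscle for holding back the transcription factor MEF2.

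The targeted gene was lower in every knockout sample. Hdac5 had log2 expression values of 8.32, 8.31, 8.31 and 8.39 in knockout samples 1 to 4, against 9.94, 9.76, 9.83 and 9.80 in wild type samples 1 to 4. The difference, knockout minus wild type, was -1.50 (SE 0.059, limma adjusted p = 1.74e-07), and an exact 2-sided permutation test gave p = 0.0286, its lowest possible value with 4 samples a group. Array medians lay between 7.69 and 7.77, and pairs of arrays correlated at 0.988 to 0.995 over all probe sets. The interquartile range of an array ran from 2.69 in wild type sample 4 to 2.92 in knockout sample 1. Wild type sample 2 was the highest wild type sample for all 9 measured genes, and wild type sample 4 the lowest for 6 of them.

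Taken by their means, 7 of the 9 measured genes were higher in knockout muscle and 2 were lower, with a median difference of 0.24 on the log2 scale. Over all genes 51.4% had a higher mean in knockout muscle and the median difference was 0.0030. At an adjusted p under 0.05 over all genes, 0 of the 9 passed in limma, where 0.0652% of all genes did. By the unadjusted p, 6 of the 9 were under 0.05 in limma, against 7.90% of all genes. Of these, 5 were higher in knockout muscle (Vcan, Fn1, Lox, Tnxb and Loxl1; 4.72% of all genes) and 1 was lower (Aebp1; 3.18% of all genes). The genes were chosen with earlier results of these data known, so these counts describe the 9 and support nothing further. Because the RNA came from whole muscle, more or fewer cells of a kind and more or less RNA per cell cannot be told apart. A level belongs to its probe set, so levels of different genes are not set against each other.

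**Figure D1:**
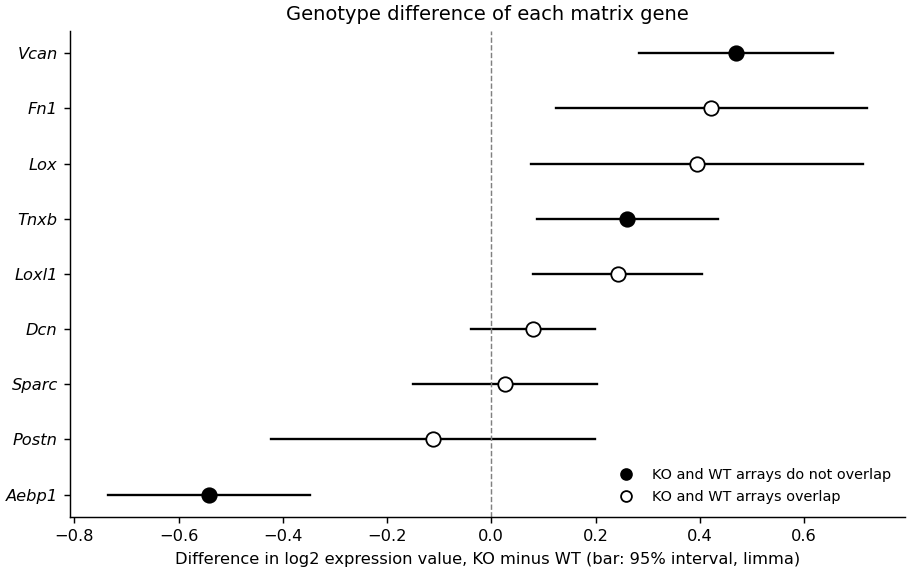
The plot gives the difference in log2 expression value, knockout minus wild type, for each of the 9 measured genes, with limma's 95% interval as a bar (n = 4 samples each). Filled points mark Vcan, Tnxb and Aebp1, whose samples did not overlap between genotypes, with Vcan at 0.47 and Aebp1 at -0.54 as the ends of the range.

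Among the adhesive glycoproteins, fibronectin (Fn1), which cells grip through integrins, had values of 11.13, 10.86, 11.42 and 10.89 in knockout samples 1 to 4, against 10.75, 10.96, 10.47 and 10.44 in wild type samples 1 to 4. Knockout samples 1 and 3 lay above every wild type sample, while knockout samples 2 and 4 lay below wild type sample 2, so the groups overlapped. The means were 11.07 ± 0.26 in knockout and 10.65 ± 0.25 in wild type muscle (SD, n = 4 each), a difference of 0.42 (SE 0.137, 95% interval 0.12 to 0.72, limma adjusted p = 0.432). This is 1.34-fold, with an interval of 1.09- to 1.65-fold. Leaving out knockout sample 3 gave a difference of 0.31, and leaving out wild type sample 2 gave 0.52. The probe set reads the gene as a whole and does not separate the spliced forms of fibronectin.

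Tenascin-X (Tnxb), a large glycoprotein that binds collagen fibrils and whose loss gives a form of Ehlers-Danlos syndrome in humans, had values of 10.37, 10.24, 10.48 and 10.24 in knockout samples 1 to 4. In wild type samples 1 to 4 it had 9.98, 10.19, 10.18 and 9.94. Every knockout sample lay above every wild type sample, although the lowest knockout and highest wild type samples were only 10.24 and 10.19. The difference was 0.26 (SE 0.080, 95% interval 0.09 to 0.44, limma adjusted p = 0.387).

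Of the proteoglycans, versican (Vcan), a large chondroitin sulphate proteoglycan of loose matrix that binds hyaluronan, differed most. Its values were 9.04, 8.88, 9.05 and 8.86 in knockout samples 1 to 4, against 8.60, 8.66, 8.41 and 8.30 in wild type samples 1 to 4. The groups were apart, with the lowest knockout sample at 8.86 and the highest wild type sample at 8.66. The means were 8.96 ± 0.10 in knockout and 8.49 ± 0.17 in wild type muscle (SD, n = 4 each), a difference of 0.47 (SE 0.085, 95% interval 0.28 to 0.65), or 1.38-fold. The limma adjusted p was 0.0777, and its unadjusted p of 1.44e-04 was the 37th smallest of the 19938 genes. With an intensity trend and robust variance in limma, the adjusted p was 0.0378, and over 17 alternatives it ran from 0.0378 to 0.356.

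Decorin (Dcn), the small leucine-rich proteoglycan that coats collagen fibrils and binds TGF-beta, had 13.85, 13.78, 13.79 and 13.78 in knockout samples 1 to 4, against 13.66, 13.79, 13.72 and 13.70 in wild type samples 1 to 4. Wild type sample 2 lay above knockout samples 2, 3 and 4. The difference was 0.08 (SE 0.055, 95% interval -0.04 to 0.20, limma adjusted p = 0.779). The probe set was brighter than 99.7% of genes, a range where an array can compress differences.

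Both lysyl oxidases, the copper enzymes that start crosslinks in collagen and elastin, had higher means in knockout muscle. Lox had 8.54, 8.76, 8.10 and 8.70 in knockout samples 1 to 4, against 8.12, 8.40, 8.19 and 7.81 in wild type samples 1 to 4. Knockout sample 3 lay below 3 of the wild type samples, and the other 3 knockout samples lay above all of them. The difference was 0.40 (SE 0.146, 95% interval 0.08 to 0.71, limma adjusted p = 0.485), which became 0.54 when knockout sample 3 was left out and 0.29 when wild type sample 4 was. Loxl1, the family member needed for elastic fibre upkeep in mice, had 9.10, 9.07, 9.22 and 9.13 in knockout samples 1 to 4. In wild type samples 1 to 4 it had 8.90, 9.08, 8.81 and 8.76, so that wild type sample 2 lay just above knockout sample 2 and the groups overlapped there alone. The difference of Loxl1 was 0.24 (SE 0.074, 95% interval 0.08 to 0.40, limma adjusted p = 0.387).

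Sparc and periostin, matricellular proteins that act on cells more than they bear load, did not separate the genotypes. Sparc, a collagen-binding glycoprotein also made by endothelial cells, had 12.36, 12.33, 12.52 and 12.45 in knockout samples 1 to 4, against 12.27, 12.62, 12.33 and 12.34 in wild type samples 1 to 4. The highest of the 8 was wild type sample 2 and the lowest wild type sample 1. The difference was 0.03 (SE 0.081, 95% interval -0.15 to 0.20, limma adjusted p = 0.961), which turned to -0.0095 when knockout sample 3 was left out and to -0.014 when wild type sample 1 was. Leaving out wild type sample 2 gave 0.10. Periostin (Postn), which is induced in injured and mechanically loaded tissue, had 7.97, 8.02, 8.69 and 8.33 in knockout samples 1 to 4, against 8.42, 8.58, 8.26 and 8.19 in wild type samples 1 to 4. The knockout samples held both the lowest and the highest of the 8 values, with a standard deviation of 0.33 in knockout and 0.17 in wild type muscle (n = 4 each). The difference of Postn was -0.11 (SE 0.142, 95% interval -0.42 to 0.20, limma adjusted p = 0.896). Leaving out knockout sample 3 gave -0.26 and wild type sample 4 gave -0.17, while leaving out knockout sample 1 gave -0.017, knockout sample 2 gave -0.034 and wild type sample 2 gave -0.039.

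Aebp1, which encodes a secreted collagen-binding protein also called ACLP, stood at the other end. It had 10.99, 10.80, 11.08 and 11.03 in knockout samples 1 to 4, against 11.59, 11.69, 11.30 and 11.47 in wild type samples 1 to 4. Every knockout sample lay below every wild type sample, with the highest knockout sample at 11.08 and the lowest wild type sample at 11.30. The means were 10.97 ± 0.12 in knockout and 11.51 ± 0.17 in wild type muscle (SD, n = 4 each), a difference of -0.54 (SE 0.089, 95% interval -0.73 to -0.35), or 0.687 of the wild type signal. The limma adjusted p was 0.0628, and its unadjusted p of 5.67e-05 was the 18th smallest of the 19938 genes. The adjusted p crossed the threshold without wild type sample 3 (0.0406), with array weights (0.0401), with dim genes left out (0.0404) and with an intensity trend and robust variance (0.0139). Over 17 alternatives it ran from 0.0139 to 0.272, and the difference from -0.61 to -0.48.

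**Figure D2:**
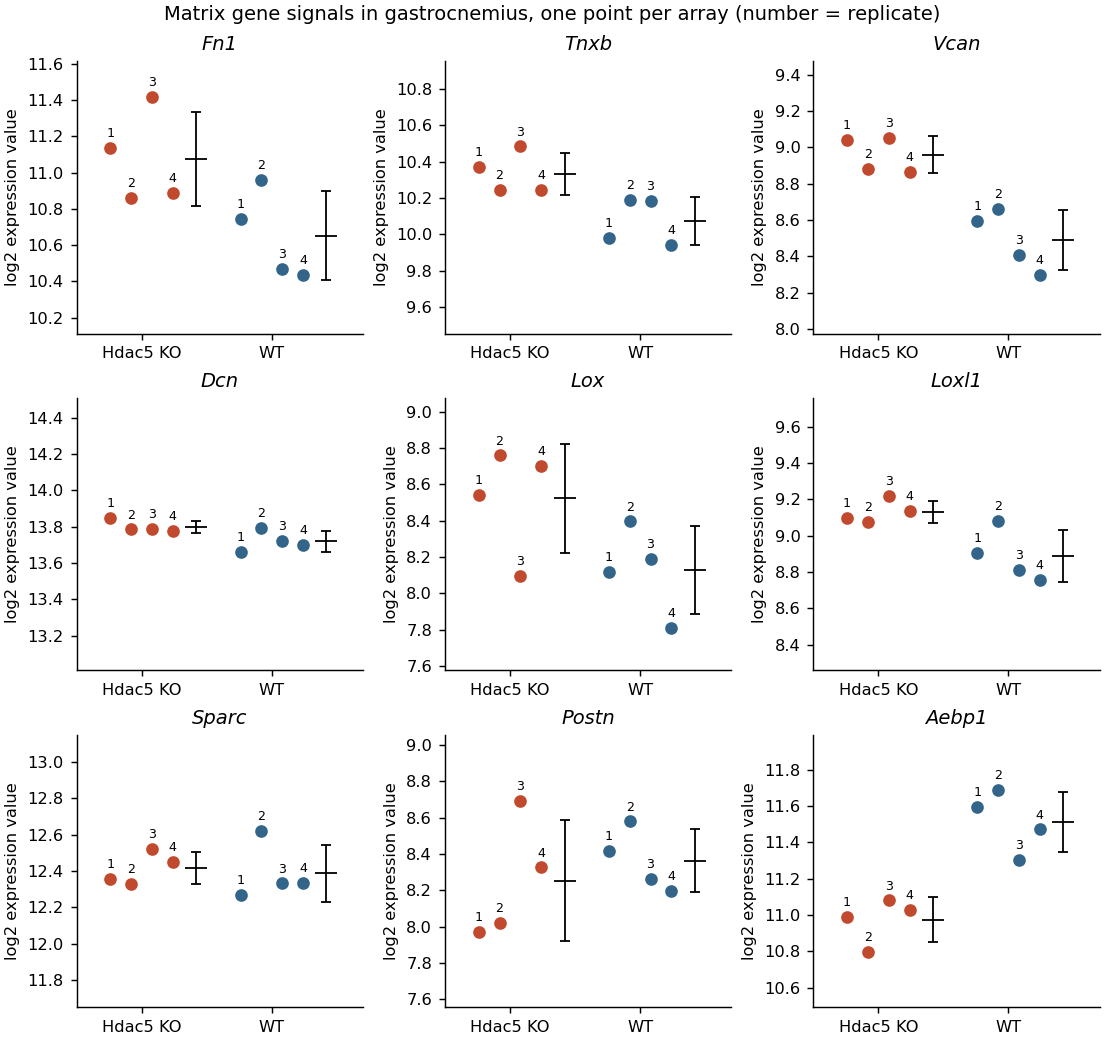
Each panel shows the log2 expression value of a gene in the 4 knockout (red, left) and 4 wild type (blue, right) samples, with the replicate number above each point and the mean ± SD (n = 4) beside each group, on axes of equal height. Knockout and wild type points are apart for Vcan, Tnxb and Aebp1, and wild type sample 2 is the highest wild type point in all 9 panels.

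In all, 3 of the 9 genes had samples that did not overlap between genotypes, where 4.90% of all genes did. Vcan and Tnxb had every knockout sample above every wild type sample (2.91% of all genes), and Aebp1 had every knockout sample below (1.99% of all genes). Without wild type sample 2, 5 genes had every knockout sample above, since Fn1, Dcn and Loxl1 then joined Vcan and Tnxb. That sample was the highest wild type sample for all 9, so leaving it out could only add genes to this count. The share over all genes was not computed for this setting, and the 2.91% does not apply to it.

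Promoter windows of these 3 genes are shown because they are the genes whose samples were apart, and because HDAC5 is known to act through a transcription factor with a recognisable site. They are RefSeq windows on GRCm38.p6, from 250 bases before to 50 bases after the gene's start, written along the gene's strand, with capitals at matches to 5 motifs searched on both strands. The motifs were the MEF2 site and the CArG box of serum response factor, both by name, and TGANTCA (AP-1), TATAAA (the TATA box) and GGGCGG (a GC box bound by SP1).
Vcan, chr13:89742463-89742762, minus strand: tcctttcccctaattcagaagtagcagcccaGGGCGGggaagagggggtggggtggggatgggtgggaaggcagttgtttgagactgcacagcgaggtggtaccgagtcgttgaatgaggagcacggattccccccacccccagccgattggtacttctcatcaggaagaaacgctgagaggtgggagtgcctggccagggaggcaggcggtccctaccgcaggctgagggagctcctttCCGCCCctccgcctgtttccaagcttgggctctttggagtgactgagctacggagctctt
Tnxb, chr17:34670285-34670584, plus strand: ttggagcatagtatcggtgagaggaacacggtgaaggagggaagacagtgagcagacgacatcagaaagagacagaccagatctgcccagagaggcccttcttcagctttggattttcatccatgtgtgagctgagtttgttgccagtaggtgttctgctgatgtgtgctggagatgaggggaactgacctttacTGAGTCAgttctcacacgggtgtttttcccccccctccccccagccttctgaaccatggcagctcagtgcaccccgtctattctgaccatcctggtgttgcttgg
Aebp1, chr11:5861616-5861915, plus strand: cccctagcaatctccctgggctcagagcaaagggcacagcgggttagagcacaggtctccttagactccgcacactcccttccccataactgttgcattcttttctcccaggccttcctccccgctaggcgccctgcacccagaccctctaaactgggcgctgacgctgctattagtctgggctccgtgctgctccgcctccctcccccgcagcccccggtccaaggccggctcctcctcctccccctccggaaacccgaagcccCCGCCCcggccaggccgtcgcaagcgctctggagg
The Vcan window held 2 matches to GGGCGG, 1 on each strand, beginning 219 and 10 bases before the start. The Tnxb window held TGANTCA once, beginning 55 bases before the start, and the Aebp1 window held GGGCGG on the opposite strand, 16 bases into the transcript. None of the 3 windows matched the MEF2 site, the CArG box or TATAAA, so none of the motifs searched was common to all of them. Over all 32851 windows of 300 bases, 35.7% held GGGCGG, 13.6% TATAAA, 7.81% TGANTCA, 3.19% the MEF2 site and 1.63% the CArG box. A match is a run of letters and was not tested as a binding site. Windows were found for 6 of the 10 genes, which were these 3, Fbn1, Sparc and Postn.

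Within a genotype most of the genes varied together from sample to sample, Aebp1 included. After subtracting each genotype's mean, Pearson's r over the 8 arrays was above 0 for 24 of the 28 pairs of the other 8 genes, with a median of 0.54 and a range from -0.30 to 0.90. The closest pair was Fn1 with Vcan (0.90), and Lox was the gene least like the rest (for example -0.30 with Postn and -0.22 with Fn1). For the 8 pairs that include Aebp1 the same within-genotype r had a median of 0.66 and was above 0 in 7, with 0.78 for Loxl1, 0.78 for Fn1 and 0.68 for Vcan. Over the 8 arrays with the genotype difference left in, the median r of those Aebp1 pairs was -0.54 and 2 of 8 were above 0. These correlations describe 8 arrays whose members share a sample, an array and its scaling.

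Set against the mean of the other 8 genes, each centred on its own mean, Aebp1 lay at -0.35, -0.49, -0.37 and -0.31 in knockout samples 1 to 4 and at 0.46, 0.36, 0.21 and 0.49 in wild type samples 1 to 4. These are differences on the log2 scale within an array, so a shift of all log2 values of an array does not touch them. A difference in spread between arrays could. Knockout sample 3 and wild type sample 2 had the highest mean of the other 8 genes in their groups, at 0.21 and 0.09, and also the highest Aebp1 of their groups. The direction of Aebp1 was the reason to set it apart, so no test is given for that contrast.

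**Figure D3:**
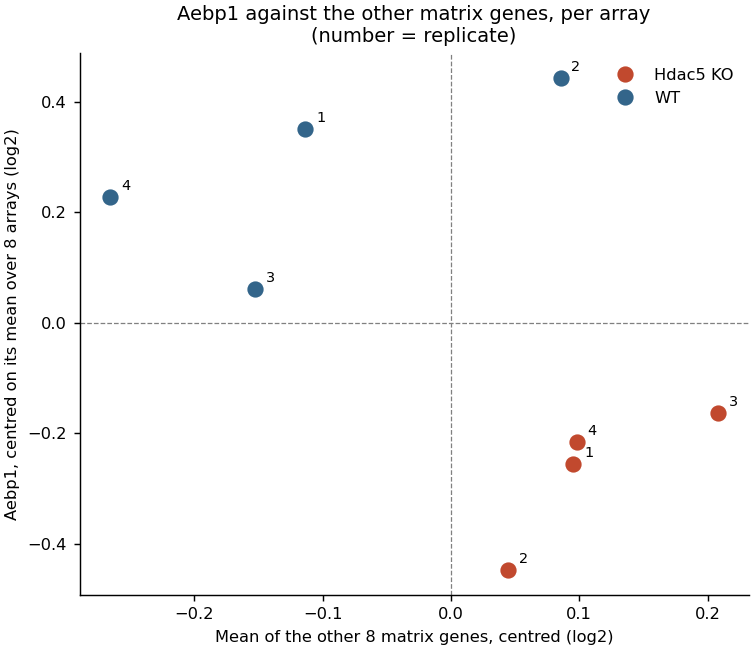
Each point is an array, placed by the mean of the other 8 matrix genes (horizontal) and by Aebp1 (vertical), both centred on their means over the 8 arrays in log2 units, with the replicate number beside it. The knockout points (red) lie below 0 for Aebp1 and the wild type points (blue) above it, and in both groups the array with the highest mean of the other genes also has the highest Aebp1.

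Single samples stood high or low for most of the genes. Knockout sample 3 was the highest knockout sample for 7 of the 9, wild type sample 2 the highest wild type sample for 9, and wild type sample 4 the lowest for 6. With all 9 genes centred and averaged, knockout samples 1 to 4 lay at 0.06, -0.01, 0.17 and 0.06, against -0.06, 0.13, -0.13 and -0.21 in wild type samples 1 to 4, so wild type sample 2 lay above 3 knockout samples. When knockout sample 1 and wild type sample 4, the ends of the first principal component of all genes, were left out together, 3 of the genes were higher at an unadjusted p under 0.05 in place of 5, and the median difference was 0.21. That alternative was chosen after seeing the data.

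Further matrix genes, in 8 lists written from textbook knowledge, held 133 measured genes of 140. The lists were chosen with earlier results of these data known, so their counts describe them and support nothing further. At an adjusted p under 0.05 in limma 0 passed, where 0.0652% of all genes did. At an unadjusted p under 0.05 in limma 25 were higher and 6 were lower in knockout muscle. Over all genes 4.72% were higher and 3.18% lower at that threshold, the shares to set beside the counts of each list below. The median difference of the 133 was 0.05, against 0.0030 over all genes.

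The microfibril and elastic fibre genes, to which fibrillins belong, mostly had higher means: 14 of 15, with 4 higher and 0 lower at an unadjusted p under 0.05 in limma and a median difference of 0.11. Fbln5, which tethers elastin to cells, averaged 9.26 ± 0.04 in knockout and 9.02 ± 0.08 in wild type muscle (SD, n = 4 each), with no overlap and a limma adjusted p of 0.232. Efemp1, a fibulin, differed by 0.37 (SE 0.108), and Emilin2, an elastic fibre glycoprotein, by 0.24 (SE 0.076). The 8 chains of fibrillar and type VI collagen all had higher means (median difference 0.13, 3 higher at an unadjusted p under 0.05 in limma). Col3a1, a chain of the fine fibrils of soft tissue, led at 0.44 (SE 0.111), with Col6a3 and Col6a2 of type VI collagen at 0.21 each. The smallest differences were those of the type I chains, Col1a1 at 0.014 (SE 0.094) and Col1a2 at 0.049 (SE 0.095).

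Of the crosslinking and procollagen processing enzymes beyond Lox and Loxl1, 12 of 16 had higher means, and the median difference was 0.03. At an unadjusted p under 0.05 in limma 1 was higher and 0 lower, which is near the shares over all genes. The higher gene was Pcolce2, an enhancer of procollagen processing, at 0.22 (SE 0.099). Its difference was 0.14 with wild type sample 4 left out and 0.082 with knockout sample 1 also left out. P4ha2, a collagen prolyl hydroxylase subunit, differed by 0.15 (SE 0.074), and Adamts3, a procollagen peptidase, by -0.12 (SE 0.056), or by -0.047 when its probe sets were averaged. The median of the list lay between 0.0065, with knockout sample 3 left out, and 0.06, with knockout sample 2 left out.

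Of the proteoglycans other than Vcan and Dcn, 12 of 17 had higher means, with 4 higher and 1 lower at an unadjusted p under 0.05 in limma (median difference 0.06). Ogn and Omd, small leucine-rich proteoglycans, differed by 0.26 (SE 0.075) and 0.30 (SE 0.117), and Fmod, a relative abundant in tendon, by -0.28 (SE 0.110). In the matricellular list 9 of 19 had higher means, with a median difference of -0.0011, a sign that turned in 6 of 17 alternatives. At an unadjusted p under 0.05 in limma 2 were higher and 2 lower. Fstl1, a secreted relative of Sparc, differed by 0.33 (SE 0.110), Thbs3 by 0.18 (SE 0.066) and Thbs4, a thrombospondin of tendon and muscle, by -0.28 (SE 0.115).

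Basement membrane and other adhesive glycoproteins had higher means in 9 of 15 and a median difference of 0.11. At an unadjusted p under 0.05 in limma 3 were higher and 1 lower. Nid1, which links laminin to type IV collagen, differed by 0.31 (SE 0.090), the laminin chain Lamb1 by 0.21 (SE 0.070), and vitronectin (Vtn), a plasma adhesion protein, by -0.22 (SE 0.088). Receptors for the matrix had higher means in 15 of 24, with 4 higher and 1 lower on the same unadjusted count (median difference 0.04). The integrin chains Itgb6, Itga9 and Itgb8 differed by 0.25 (SE 0.085), 0.20 (SE 0.083) and -0.25 (SE 0.095). Proteases and inhibitors had higher means in 13 of 19, with 4 higher and 1 lower on that count (median difference 0.06). Adamts5, a protease that cleaves versican, differed by 0.49 (SE 0.145, limma adjusted p = 0.370), beside the 0.47 of Vcan itself, and the plasminogen activator Plau by 0.34 (SE 0.091). Timp3, a matrix-bound inhibitor of metalloproteinases, averaged 11.52 ± 0.12 in knockout and 11.74 ± 0.09 in wild type muscle (SD, n = 4 each), with every knockout sample below every wild type sample (difference -0.23, limma adjusted p = 0.399).

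**Figure D4:**
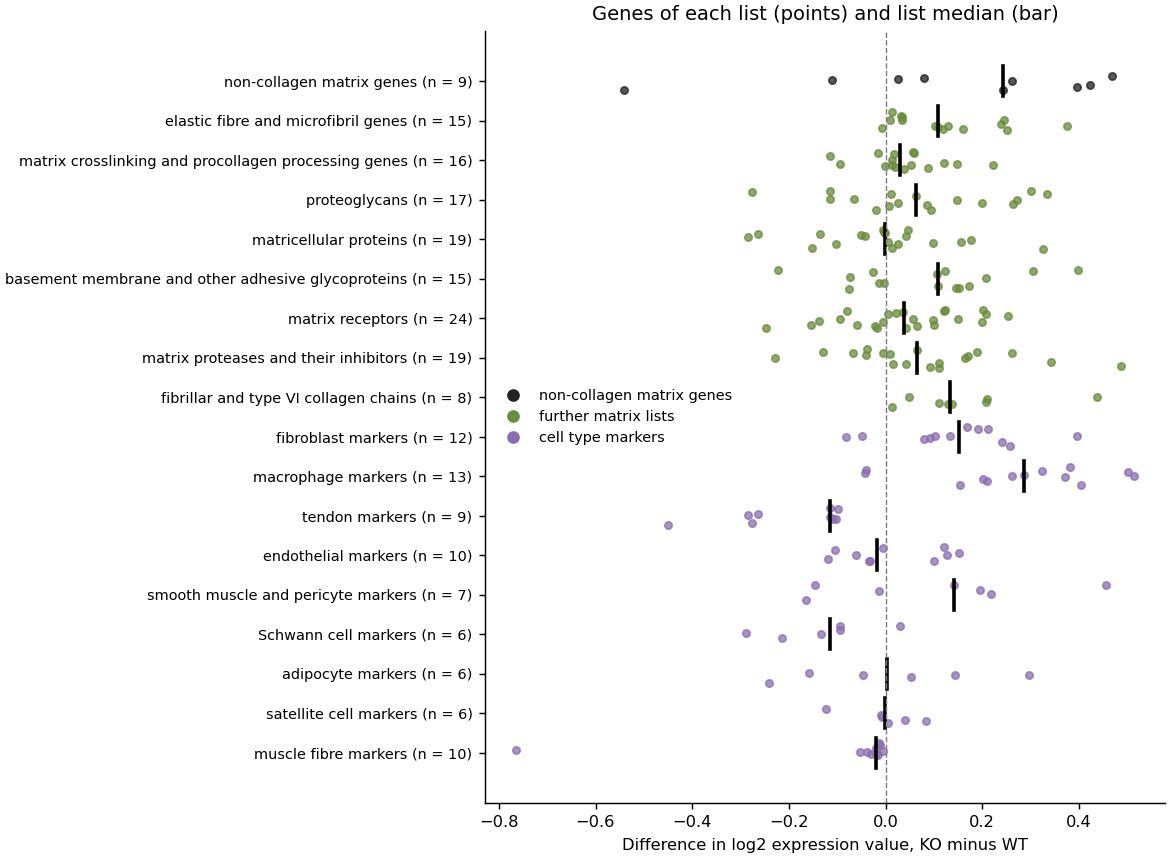
Each point is a gene, placed by its difference in log2 expression value, knockout minus wild type, and the bar is the median of its list, with the number of measured genes in brackets. The 9 non-collagen matrix genes reach from -0.54 (Aebp1) to 0.47 (Vcan) around a median of 0.24, the fibroblast and macrophage markers have medians of 0.15 and 0.29, and the 9 tendon markers all lie below 0.

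Markers of fibroblasts and of macrophages had mostly higher means, as the matrix genes did. Of 12 fibroblast markers, none of which is among the 10 genes, 10 had higher means in knockout muscle. At an unadjusted p under 0.05 in limma 5 were higher (4.72% of all genes), and the median difference of the 12 was 0.15. Their summed linear signal ran from 16187 to 18537 in knockout samples, against 14860 to 17185 in wild type samples, so the groups overlapped. In such a sum, here and for the lists below, the brightest genes weigh most. The brightest were Gsn, a gelsolin that other cells also make, at 0.09 (SE 0.068), and the mesenchymal transcription factor Prrx1 at -0.05 (SE 0.062). Of 13 macrophage markers, 11 had higher means and 8 were higher at an unadjusted p under 0.05 in limma, against 4.72% of all genes (median difference of the list 0.29). Their summed signal was 5296 to 6765 in knockout samples, against 4275 to 5558 in wild type samples, with Lyz2, a lysozyme, at 0.51 (SE 0.134) and the mannose receptor Mrc1 at 0.38 (SE 0.114). All 12 and all 13 lay above the 25th percentile of gene signals.

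Tendon markers lay on the same side as Aebp1. All 9 had lower means in knockout muscle and 4 were lower at an unadjusted p under 0.05 in limma, against 3.18% of all genes. The median difference of the list was -0.12. Its summed signal was 5442 to 7049 in knockout samples, against 6413 to 8493 in wild type samples. Leaving out knockout sample 1 gave a median of -0.076, while leaving out knockout sample 3 gave -0.24, knockout sample 4 gave -0.18, wild type sample 1 gave -0.20 and wild type sample 4 gave -0.18. Fmod and Thbs4, given above, were the brightest, and 4 of the 9 also belong to the matrix lists. The part of fibroblasts, macrophages or tendon in the matrix differences was not tested. Endothelial markers had a median difference of -0.019, smooth muscle and pericyte markers 0.14, Schwann cell markers -0.11, adipocyte markers 0.0038 and satellite cell markers -0.00095. The summed signal of each of these lists overlapped between genotypes. Of the 7 smooth muscle and pericyte markers, 2 were higher and 2 lower at an unadjusted p under 0.05 in limma (4.72% and 3.18% of all genes). Among these 7, 1 had every knockout sample above every wild type sample (2.91% of all genes) and 1 had every knockout sample below (1.99%). Of the 6 satellite cell markers, 1 also had every knockout sample below. Muscle fibre markers (10 of 10 with lower means, median difference -0.019) had a summed signal of 183793 to 191189 in knockout samples, against 189319 to 192612 in wild type samples. The mean difference of that list was -0.10, and its largest difference was that of Myh7, the slow myosin heavy chain, which is named after its values were seen. The other fibre markers lay at percentile 99.8 of gene signals or above, a range where an array can compress differences. Myh7 had 11.01, 11.89, 12.14 and 11.84 in knockout samples 1 to 4, against 12.22, 12.73, 12.62 and 12.35 in wild type samples 1 to 4. Every knockout sample lay below every wild type sample, with a difference of -0.76 (SE 0.199, limma adjusted p = 0.266), which was -0.53 when knockout sample 1 was left out. The limma adjusted p of Myh7 was under 0.05 in 1 of 17 alternatives, with the replicate number as a block (0.0461). It was 0.464 with an intensity trend and robust variance, and 0.505 without wild type sample 3. The part of slow fibres in the matrix differences was not tested. The signs of the endothelial, adipocyte, satellite cell and muscle fibre medians each turned in at least 1 alternative.

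By pattern over the 8 arrays, the genes most like the mean of the 9, among 9960 other genes brighter than the median gene, were Epn2 (Pearson's r = 0.987), Arrb1 (0.968), Actn1 (0.964), Pdia4 (0.959) and Lmna (0.955). Their own differences between genotypes ran from 0.04 for Actn1 to 0.26 for Arrb1, and r within genotype was between 0.934 and 0.986. Those most like Aebp1 were Smdt1 (0.973), Prkag3 (0.940) and Acvr1b (0.936), with differences of -0.16, -0.30 and -0.19. They were picked as the highest of many, so r is a description of these arrays.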

How the data were processed

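The deposited table holds log2 expression values, 1 for each of 35556 probe sets on 8 arrays, made by the authors with Affymetrix Expression Console 4.0, per the submitters' processing notes. The sources used here do not give the background correction, normalization or genome build. The log2 scale was read from the values. Nothing was normalized again. A signal near background or saturation compresses differences, and the number of arrays limits precision.

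Probe sets with exactly 1 symbol (21789) gave 19938 genes, by the brightest probe set. Knockout and wild type were compared with limma 3.58.1 (lmFit, eBayes) in R 4.3.3, genotype as the only term, Benjamini-Hochberg over all genes, threshold 0.05. Samples were grouped by the genotype label. SE is limma's moderated standard error. The fit was tested on simulated data with independent noise for each gene, so that test does not cover shifts shared by the genes of a sample.

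The 10 genes, the 17 further lists and the alternatives were chosen with earlier results of these data known. All 10 genes are named. From each matrix list the 3 genes of smallest p are named unless a gene passed, and from each cell list the 2 brightest, which are given for fibroblasts, macrophages and tendon only. Myh7, Col1a1 and Col1a2 were added after their values were seen. Likeness took the 5 and 3 highest r. Plots used matplotlib 3.10.9 in Python 3.11.15.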

Additional observations from a re-analysis of the deposited data

Results flagged for a closer look

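In 2 of the 20 groups of 4 samples examined (Hdac5 and the 9 matrix genes in each genotype), a sample lay apart from the other 3, by a gap over range above Dixon's 95% critical value. Chance flags about 1 in 20 such groups. Decorin (Dcn) was 13.85 in knockout sample 1, against 13.78 to 13.79 in the other knockout samples (gap over range 0.867). Hdac5 was 8.39 in knockout sample 4, against 8.31 to 8.32 in the other knockout samples (0.884).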

How the results depend on the processing

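Of 17 alternatives, 16 were planned and 1 was added after seeing the data (knockout sample 1 and wild type sample 4 left out together). The 9 matrix genes kept the sign of their difference in all 17, except Sparc, which ran from -0.014 to 0.10 with a sample left out and was below 0 when that sample was knockout 3 (-0.0095) or wild type 1 (-0.014). Pdia4, named for its pattern, was -0.018 with the mean of its probe sets. Genes named from the lists also moved by over 1.5 times. With that pair left out the differences were Adamts5 0.30, Fstl1 0.21, Itgb6 0.15, Omd 0.19 and Gsn 0.023. With a sample left out, Itga9 was 0.13 at the lowest, Gsn 0.052, Thbs4 -0.19 and Prrx1 -0.084 to -0.017. With a sample left out, list medians were 0.066 at the lowest for elastic fibre, 0.071 for basement membrane, 0.024 for proteoglycan and 0.038 for protease genes, 0.023 to 0.073 for receptors and -0.072 at the highest for Schwann cell markers. The fibroblast marker median was 0.087 with that pair left out. The median difference of the 9 stayed between 0.20 and 0.30. The number of the 9 that passed over all genes was 0 with the planned fit, 2 with an intensity trend and robust variance (Aebp1 and Vcan), 1 with array weights, 1 with genes below the 25th percentile left out (Aebp1 in both), and 0 to 1 with a sample left out. Over all genes 13 passed, and this number was 23 after quantile normalization, 44 with a trend and robust variance, 31 with array weights, 36 with dim genes left out, 5 with all probe sets adjusted together, 5 with that pair of samples left out, and 5 to 20 with a sample left out. By unadjusted p under 0.05 in limma, 3 of the 9 were higher with that pair left out, 4 to 5 with a sample left out, and 1 to 2 were lower. The genes with every knockout sample above numbered 2 to 5 with a sample left out. The cause of these shifts was not tested. Samples with the same number did not vary together throughout (r of their deviations 0.34, -0.12, -0.15 and 0.32), so the numbers were not read as pairs. For numbers 1 and 4, r was above the highest with a sample of another number (0.13 and 0.026), and for 2 and 3 it was below (0.21 and 0.13). What samples 1 or samples 4 may share was not tested. With the replicate number as a block 30 genes passed and 0 of the 9 (Aebp1 adjusted p = 0.0734 in limma). The dimmest of the 9 genes was brighter than 54.9% of genes.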

Other observations

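In mean log2 level, knockout sample 3 was the highest knockout sample for 11 of the 17 further lists. Wild type sample 2 was the highest wild type sample for 17 of the 17, the muscle fibre markers included, and wild type sample 4 the lowest for 11. Adipocyte markers spread most among wild type samples, the mean level being 8.97 to 9.32 in knockout samples, against 10.07 in wild type sample 2 and 8.21 in wild type sample 3.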
